A study of Mus musculus with 2 samples.

Results

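Runx1, Runx2 and Runx3 encode the DNA-binding subunits of the RUNX transcription factors of the mouse, and Cbfb encodes CBFβ, the partner that they share. These 4 genes were taken by symbol from the 32285 genes of each matrix, and each symbol matched 1 row. The level of each gene was followed across the leukocyte classes of the colon, to ask which member accompanied Runx3 in a class and which one made up the larger part of the Runx transcripts.

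RUNX proteins bind DNA through the Runt domain, and CBFβ, which does not bind DNA itself, makes that binding stronger. Runx1 is known for the formation of blood stem cells and for T cell, B cell and myeloid development, Runx2 for bone formation and for plasmacytoid dendritic cells, and Runx3 for cytotoxic T cells, NK cells and innate lymphoid cells. In CD8 T cells Runx3 silences Cd4, and in CD4 T cells the factor encoded by Zbtb7b opposes it. The proximal and distal starts of Runx genes give proteins that differ at their first residues, and 3′ counts do not separate them.

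The study used mice in which Runx3 carries floxed alleles (RUNX3 fl/fl), either with Cre driven by Lyz2 (RUNX3 fl/fl-Lyz2-Cre) or without Cre as littermate controls. The labels name no treatment and no strain, and the strain of the floxed mice was not given in the sources used here. Lyz2-driven Cre acts in myeloid cells, not in all leukocytes. Each group was 1 library, which the study describes as pooled from young adult male mice, so there was no replicate and no test between groups was possible. One library was titled Runx3_fl and the other Runx3. The titles do not state the Cre status, and both libraries are therefore named here by title and given no genotype. The floxed part of Runx3 was not given in the sources used here, and 3′ counts can still come from an allele that lost an exon further upstream, so the Runx3 counts do not check the labels.

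Of the cells in the matrices, 11885 of 12968 (Runx3_fl) and 8167 of 8953 (Runx3) had 200 to 6000 genes and at most 15% mitochondrial UMIs. A UMI is a molecular barcode that marks 1 captured RNA molecule. The kept cells held a median of 9573 and 5731 UMIs. Xist, which male cells do not express, had UMIs in 29.9% of the cells of the library labelled Runx3_fl and 12 UMIs in all in the other library, which goes against a male origin of part of the Runx3_fl cells. The libraries shared 27 barcodes among the kept cells. The labels call the cells CD11b-positive, but cells of T, B and NK gates were common, and Itgam, which encodes CD11b, was at 44.3 and 31.5 CPM (UMIs scaled to the total UMIs of the class) in the T gate against 142 and 221 in the macrophage gate (here and below the value of the library labelled Runx3_fl comes first where 2 values are paired).

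A cell was put in a class when it had at least 2 UMIs of every gate gene, and cells that met more than 1 gate were left out. The gates were Ncr1 for NK cells, Cd3e for T cells, Cd79a for B-lineage cells, Csf3r for neutrophils, Flt3 for conventional dendritic cells (cDC), and Csf1r together with C1qa for macrophages. In all, 45.1% and 38.1% of the kept cells fell in 1 gate. The 6 classes held 580 and 62 NK cells, 2668 and 273 T cells, 345 and 1140 B-lineage cells, 843 and 1053 neutrophil-gate cells, 615 and 294 cDC, and 305 and 290 macrophages. The summed level of the markers of each class was highest in its own gate in both libraries. In their own gates the marker sums were 8628 and 5636 CPM for NK cells, 2800 and 1832 for T cells, 1585 and 6911 for B cells, 7135 and 44038 for neutrophils, 649 and 651 for cDC, and 2236 and 3587 for macrophages. Markers of other cells (red cells, mast cells, epithelium, fibroblasts and plasma cells) summed to 15909 and 10279 in the B gate, mostly Jchain, and to 38.7 to 140 elsewhere. The neutrophil gate also took Csf1r-expressing cells, with Csf1r at 224 and 266 CPM. In the NK gate, set by Ncr1 alone, 138 of 580 and 21 of 62 cells had no UMI of Eomes, a factor of conventional NK cells. Whether this gate took other innate lymphoid cells was not tested. The B gate was mostly without Ms4a1 in the library labelled Runx3_fl, 225 of its 345 cells, with Jchain, a gene of antibody-secreting cells, at 16185 CPM in those cells.

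Levels are given as CPM, for which the UMIs of a gene in all cells of a class were pooled and scaled to the total UMIs of the same cells. Intervals are 95% and cover counting error only, not the spread between mice. The counts come from 3′ libraries and were not scaled by gene length, and Runx2 and Runx1 span 318811 and 224684 bases against 57339 for Runx3 and 47316 for Cbfb. Whether reads in introns were counted was not given in the sources used here, so the shares of the Runx UMIs may depend on gene length. Runx genes were therefore compared mainly between classes, as a level of 1 gene or as its share of the summed Runx UMIs.

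Runx genes are known to bind near their own starts, so the Runx motif was looked up in the RefSeq promoter windows of the members (build GRCm38.p6, 250 bases before and 50 after each start). The motif searched was ACCACA on the gene strand or TGTGGT, its form on the other strand, which cannot overlap each other. At least 1 motif was found in 16.8% of all 32851 windows. The first windows of Runx1, Runx2 and Runx3 each held a pair of motifs in the same direction with 2 bases between them, a pair found in 7 of all windows, or 0.0213%. The second windows of Runx1 and Runx3 and the window of Cbfb held no motif. The stretch around each pair is shown because its centre is shared by the 3 Runx genes, with the motifs in capitals:
Runx1, chr16:92826025-92826054, minus strand: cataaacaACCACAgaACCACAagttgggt
Runx2, chr17:44814583-44814612, minus strand: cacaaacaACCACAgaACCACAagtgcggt
Runx3, chr4:135120503-135120532, plus strand: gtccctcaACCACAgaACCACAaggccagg
The 3 stretches shared an unbroken run of 18 bases. In Runx1 and Runx2 the pair began 28 and 23 bases after the first transcribed base, and in Runx3 it began 134 bases before it. A match of letters does not show that a factor was bound there.

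**Figure D1:**
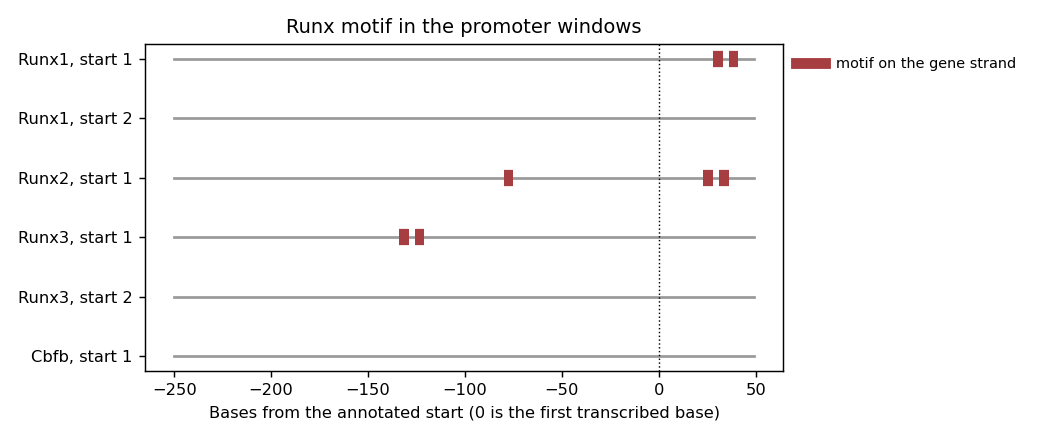
Positions of the Runx motif, in bases from the annotated start, in the 6 promoter windows of the members. The paired motifs lie after the start in Runx1 and Runx2 and before it in Runx3, and the windows of Cbfb and of the second starts of Runx1 and Runx3 hold none.

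In the GENCODE M21 annotation, Runx3 (ENSMUSG00000070691) lies on the plus strand of chromosome 4 at 135120652 to 135177990, and Cbfb (ENSMUSG00000031885) on the plus strand of chromosome 8 at 105170674 to 105217989. Runx1 (ENSMUSG00000022952) lies on the minus strand of chromosome 16 at 92601466 to 92826149, and Runx2 (ENSMUSG00000039153) on the minus strand of chromosome 17 at 44495987 to 44814797. All 4 are protein coding. No other annotated gene overlaps Runx1 or Runx3 on the same strand, 1 small gene does so for Runx2 and 2 for Cbfb. Antisense genes overlap Runx1, Runx2 and Runx3, among them Runx2os1 and Supt3 at Runx2, and whether strand was used in counting was not given in the sources used here.

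Runx3 was highest in NK cells in both libraries. Its level there was 825 (802 to 850) and 583 (530 to 640) CPM. T cells followed at 246 and 250, and B-lineage cells were lowest at 69.9 and 83.7. The myeloid classes lay between, with cDC at 185 and 225, macrophages at 154 and 241, and the neutrophil gate at 120 and 144. In the library labelled Runx3_fl no 2 neighbours in this order had overlapping intervals. In the library labelled Runx3 the intervals of T cells, macrophages and cDC overlapped in turn, so their order is not resolved. From the highest to the lowest class the level fell 11.8-fold in the library labelled Runx3_fl, compared with 6.97-fold in the one labelled Runx3.

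Runx1 was also highest in NK cells in both libraries, at 1939 (1902 to 1976) and 1734 (1642 to 1830) CPM. It was high in every myeloid class as well. The neutrophil gate was at 1065 and 1169, cDC at 974 and 1370, and macrophages at 685 and 1191. T cells had 673 and 1018, and B-lineage cells were again lowest at 239 and 924. The span from highest to lowest was 8.11-fold in the library labelled Runx3_fl but 1.88-fold in the one labelled Runx3, where B-lineage cells stood at 924 rather than 239. Runx1 and Runx3 thus shared their highest and their lowest class in both libraries, with the B gate taken as a whole. For Runx1 the low place of this gate rested on its cells with no Ms4a1 UMI, at 116 and 518. Those with Ms4a1 had 877 and 1166, above T cells in both libraries. Of the 5614 genes compared in this way, 9.98% were highest in NK cells in both libraries, against 2 of the 4 members.

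The height of NK cells over the other classes was larger for Runx3 than for Runx1. Over T cells, Runx3 was 3.36-fold (3.24 to 3.48) and 2.33-fold (2.07 to 2.63) higher in NK cells, and Runx1 2.88-fold and 1.70-fold. Over macrophages the values were 5.38-fold (4.96 to 5.84) and 2.42-fold (2.15 to 2.72) for Runx3, and 2.83-fold and 1.46-fold for Runx1. For Cbfb they were 1.08-fold and 0.856-fold over T cells, and 2.61-fold and 1.81-fold over macrophages.

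Runx2 had another order. It was highest in T cells in the library labelled Runx3_fl, at 1159 (1149 to 1169) CPM, above NK cells at 336 (321 to 352). In the library labelled Runx3 the T cells had 268 (250 to 287), and their interval overlapped that of cDC at 248 (234 to 264). NK cells there had 219 (187 to 254), which overlapped both, so that T cells, cDC and NK cells were not resolved. Macrophages were at 211 and 107, the neutrophil gate at 143 and 94.3, and B-lineage cells were lowest in both libraries at 95.02 and 43.3.

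Cbfb, whose product pairs with all 3 RUNX proteins, had a span of 3.25-fold and 2.12-fold from the highest to the lowest class, smaller than those of the Runx genes in the library labelled Runx3_fl but larger than the 1.88-fold of Runx1 in the other. NK and T cells were at 191 (180 to 203) and 178 (174 to 182) CPM in the library labelled Runx3_fl, and at 141 (115 to 170) and 165 (150 to 180) in the one labelled Runx3. B-lineage cells had 87.7 and 152, and cDC 110 and 105. The lowest values were in macrophages, 73.4 and 77.7, and in the neutrophil gate, 58.9 and 81.5. There were 22.5 (20.3 to 25.1) and 17.3 (16.1 to 18.5) Runx UMIs per Cbfb UMI in the neutrophil gate, 14.3 and 19.8 in macrophages, 16.2 and 18.0 in NK cells, 12.4 and 17.5 in cDC, 11.7 and 9.33 in T cells, and 4.61 (4.22 to 5.04) and 6.91 (6.55 to 7.29) in B-lineage cells. This ratio of counts is not a ratio of proteins.

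**Figure D2:**
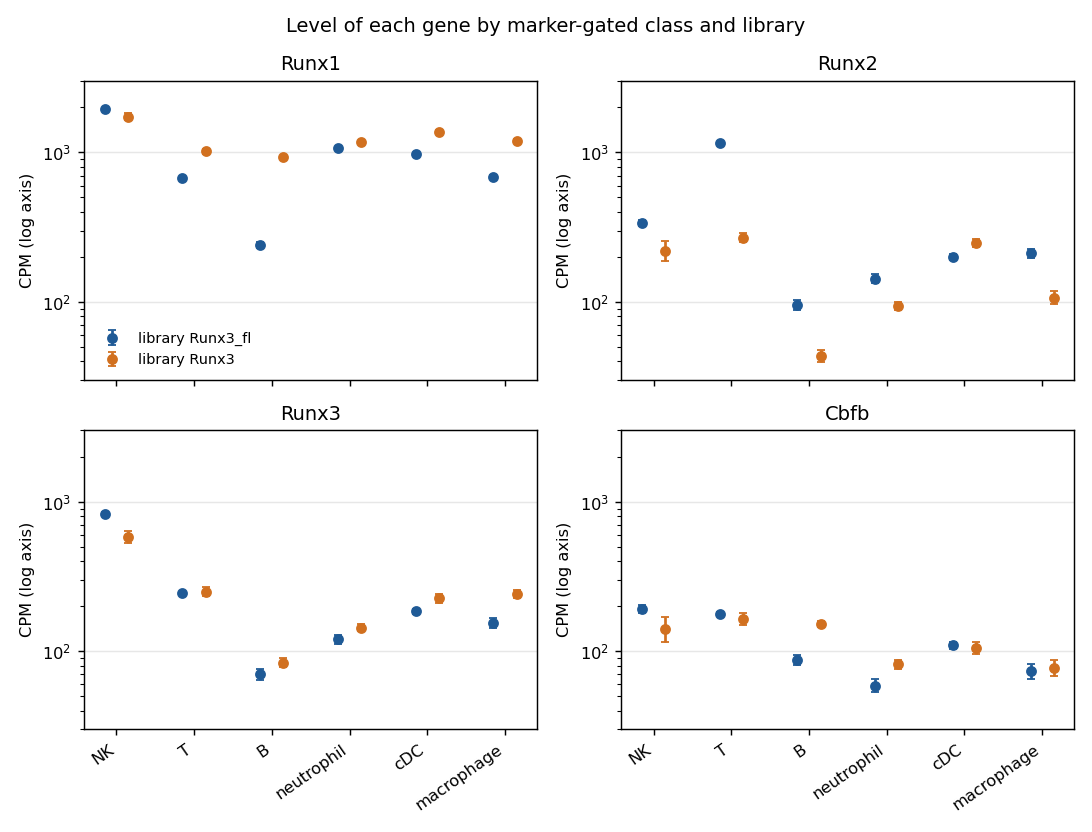
Level of Runx1, Runx2, Runx3 and Cbfb in CPM (log axis) in 6 marker-gated classes, with 1 point for each library and bars for the 95% Poisson interval of the count, which covers counting error only. Runx1 and Runx3 are highest in NK cells in both libraries, and Runx2 in T cells stands at 1159 in the library labelled Runx3_fl but 268 in the other.

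Runx1 made up the largest share of the Runx UMIs in every class of both libraries except the T cells of the library labelled Runx3_fl. It gave 62.5% and 68.4% of the Runx UMIs of NK cells, 80.2% and 83.1% in the neutrophil gate, 71.7% and 74.3% in cDC, 65.3% and 77.4% in macrophages, and 59.2% and 87.9% in B-lineage cells. In T cells it gave 32.4% (32.1 to 32.7) and 66.3% (64.9 to 67.6).

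The share of Runx3 was largest in NK cells, at 26.6% (26.0 to 27.3) and 23.0% (21.1 to 24.9). Macrophages had 14.6% (13.6 to 15.7) and 15.7% (14.7 to 16.7), cDC 13.6% and 12.2%, and T cells 11.8% (11.6 to 12.04) and 16.3% (15.2 to 17.4). The neutrophil gate had 9.03% and 10.2%, and B-lineage cells 17.3% and 7.96%. As a mean over cells the shares of the library labelled Runx3_fl were 5.83% in the neutrophil gate and 10.5% in B-lineage cells, and they were 5.42% in its neutrophil-gate cells with no Csf1r UMI and 7.91% in its B-gate cells with Ms4a1. In none of the 6 classes of either library did Runx3 give the largest share, and Runx1 had the larger count beside it in each. The macrophage shares of the libraries overlapped in their intervals, although the summed Runx level there was 1049 CPM in the library labelled Runx3_fl, against 1539 in the one labelled Runx3.

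The share of Runx2 was lower in the library labelled Runx3 in all 6 classes. It was 55.8% (55.5 to 56.1) and 17.4% (16.3 to 18.6) in T cells, 23.5% and 4.12% in B-lineage cells, and 20.1% (19.0 to 21.3) and 6.94% (6.28 to 7.66) in macrophages. In the neutrophil gate it was 10.8% and 6.70%. In NK cells it was 10.9% and 8.62%, and in cDC 14.7% and 13.5%, where the libraries lay closer together.

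**Figure D3:**
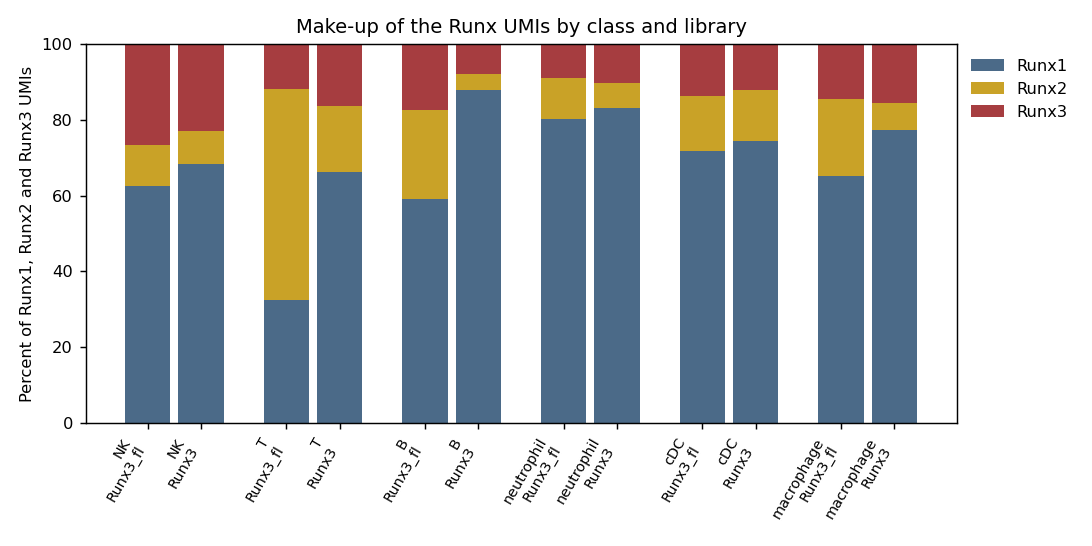
Share of the summed Runx1, Runx2 and Runx3 UMIs (percent, bars to 100) that each gene gave in each class, with 1 bar for each library. Runx1 is the largest part of every bar except that of T cells in the library labelled Runx3_fl, where Runx2 is 55.8%.

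RNA set free by other cells can add UMIs to any droplet. The level of markers of other lineages in each class gave an estimate of this background, 2.29% to 28.4% of the level of the whole library, with the highest value in the macrophages of the library labelled Runx3. At that share free RNA would give 55.4 of the 241 Runx3 CPM there, 345 of the 1191 of Runx1 and 32.5 of the 77.7 of Cbfb. In NK cells it would give 16.0 of 825 and 15.3 of 583 for Runx3. In the B gate of the library labelled Runx3 it would give 14.5 of the 43.3 of Runx2 and 23.1 of the 83.7 of Runx3. The largest parts of a level that this estimate could give were 41.8% for Cbfb in the macrophages of the library labelled Runx3, 33.4% for Runx2 in its B gate and 32.5% for Runx2 in its macrophages.

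With every cell thinned to 2000 UMIs, Runx3 was seen in 68.4% (64.5 to 72.2) and 58.1% (44.8 to 70.5) of NK cells, 32.9% and 36.0% of T cells, 29.9% and 30.2% of cDC, 23.0% (18.4 to 28.1) and 37.2% (31.6 to 43.2) of macrophages, 11.5% and 21.4% of neutrophil-gate cells, and 14.0% and 11.0% of B-lineage cells. Between 0 and 59 shallower cells per class and library were left out. Without thinning the NK shares were 92.2% and 91.9% at median depths of 8362 and 11060 UMIs, and the macrophage shares 75.7% and 76.6% at 14187 and 10732. Runx1 at the fixed depth was found in 89.8% and 90.3% of NK cells and in 64.6% and 77.7% of macrophages, and Cbfb in 28.4% and 25.4% of T cells.

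Within a class, cells with a Runx1 UMI did not differ from cells without one in how often they held a Runx3 UMI by more than the counting intervals. In NK cells of the library labelled Runx3_fl a Runx3 UMI was in 67.9% (63.7 to 71.9) of 521 cells with Runx1 and in 72.9% (59.7 to 83.6) of 59 cells without. In T cells of that library it was in 34.1% (31.8 to 36.5) of cells with Runx1 and 31.1% (28.4 to 34.0) of cells without. In macrophages of the library labelled Runx3 it was in 35.2% (28.8 to 41.9) and 44.4% (31.9 to 57.5). In all 12 classes and libraries the 2 intervals overlapped, so that no tie between Runx1 and Runx3 within a class was detectable at this depth. The same held for Runx3 and Cbfb in T cells, with 33.6% (30.3 to 37.1) and 32.6% (30.5 to 34.8) in the library labelled Runx3_fl. In its B gate, which mixes cells with and without Ms4a1, Runx1 was found in 53.3% (41.4 to 65.0) of cells with Cbfb and in 34.9% (29.3 to 41.0) of cells without, intervals that did not overlap.

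The T gate was divided by its coreceptors, into cells with at least 2 Cd8a UMIs and no Cd4, and cells with at least 2 Cd4 UMIs and no Cd8a. In the library labelled Runx3_fl, Runx3 was at 235 (228 to 243) CPM in 898 Cd8a cells and 259 (251 to 267) in 979 Cd4 cells. The library labelled Runx3 had it at 377 (322 to 439) in 36 Cd8a cells and 150 (123 to 181) in 57 Cd4 cells. The higher Runx3 of Cd8a cells over Cd4 cells was thus seen in the library labelled Runx3 and not in the other. As a share of Runx UMIs, Runx3 gave 14.8% and 29.0% in Cd8a cells and 10.4% and 7.54% in Cd4 cells, so the share was larger in Cd8a cells in both libraries.

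Runx2 was high in all parts of the T gate of the library labelled Runx3_fl. It had 1520 (1501 to 1539) CPM in Cd4 cells, 766 (753 to 780) in Cd8a cells and 1128 (1087 to 1170) in 223 T cells with no Cd4, Cd8a or Cd8b1 UMI. The values of the library labelled Runx3 were 472 (423 to 525), 391 (335 to 454) and, in 101 such cells, 149 (127 to 174). Runx1 went the other way in Cd4 cells, at 702 (689 to 715) and 1368 (1284 to 1456), and was close in Cd8a cells, at 587 (575 to 599) and 531 (465 to 604). Cbfb was at 179 and 181 in Cd8a cells and at 180 and 158 in Cd4 cells, with intervals that overlapped between the libraries. In 22 T cells with Foxp3, the factor of regulatory T cells, the library labelled Runx3 had Runx1 at 1395, Runx2 at 577 and Runx3 at 199 CPM, and the other library had 15 such cells, under the 20 needed for a level.

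The T cells of the libraries differed in state as well. Mki67, a proliferation marker, was at 278 and 40.5 CPM, Ifng at 365 and 93.6, and Tcf7, a factor of naive and memory T cells, at 25.6 and 242. Whether these states carry the difference in Runx2 was not tested.

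Cells in the B gate with at least 1 UMI of Ms4a1, which encodes CD20, had nearly the same Runx make-up in both libraries. In 120 and 789 such cells Runx1 gave 89.2% (87.2 to 91.0) and 90.8% (90.1 to 91.4) of the Runx UMIs, Runx3 7.91% (6.38 to 9.68) and 7.11% (6.56 to 7.69), and Runx2 2.85% and 2.13%. Their Runx1 level was 877 (822 to 934) and 1166 (1140 to 1193) CPM. Median depth was 25525 and 6146 UMIs in the cells with no Ms4a1, against 6655.5 and 6677 in those with it. A shallow cell can miss Ms4a1, so the cells without it may not be alike in the libraries. Cells with no Ms4a1, which had Jchain at 16185 and 24397, were lower in Runx1 in both libraries, at 116 (107 to 125) in 225 cells and 518 (495 to 541) in 351 cells. Runx2 was higher in them, at 108 and 70.0 against 28.0 and 27.4 in cells with Ms4a1. Cbfb was lower in them, at 74.0 and 89.0 against 158 and 190. Runx3 differed less, at 68.4 (61.8 to 75.5) and 70.8 (62.6 to 79.8) against 77.7 (62.2 to 95.98) and 91.4 (84.1 to 99.1), with intervals that overlapped in the first library but not in the second. Mki67 was at 445 CPM in the cells without Ms4a1 of the library labelled Runx3_fl and at 45.3 in those of the one labelled Runx3.

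**Figure D4:**
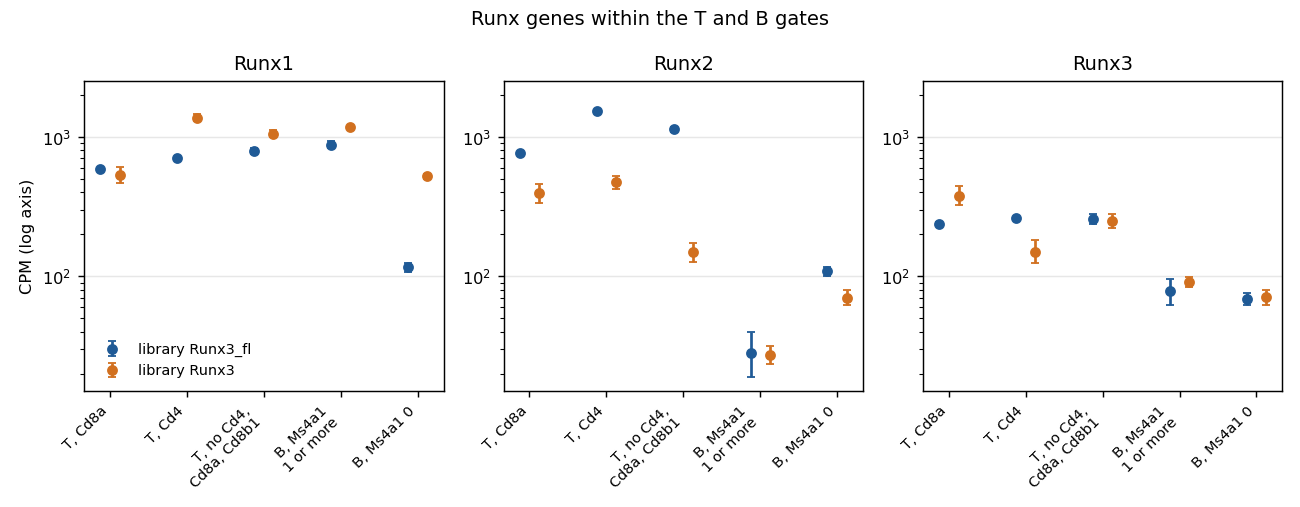
Levels of Runx1, Runx2 and Runx3 in CPM (log axis) within the T and B gates, with 1 point for each library and 95% Poisson intervals. Runx2 is higher in the library labelled Runx3_fl in all 3 parts of the T gate, and Runx1 is lower in B-gate cells without Ms4a1 than in those with it in both libraries.

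Among dendritic cells, Runx2 differed between the subsets. In 187 cells of the library labelled Runx3_fl with Xcr1, the chemokine receptor of type 1 cDC, Runx2 was at 62.8 (56.0 to 70.2) CPM and 4.65% of the Runx UMIs. In 46 and 82 cells with Cd209a, a marker of type 2 cDC, it was at 307 (268 to 351) and 330 (300 to 362), or 18.3% and 15.3%. Runx3 was at 164 (153 to 175) in Xcr1 cells and at 147 (120 to 178) and 186 (164 to 210) in Cd209a cells. Runx1 was at 1123 in Xcr1 cells and at 1226 and 1636 in Cd209a cells. The Xcr1 gate of the library labelled Runx3 held 15 cells, and the Siglech gate for plasmacytoid cells 4 and 5, so no level was given.

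In the macrophage gate, Runx3 was much the same in cells with and without Ly6c2, which encodes a part of the Ly6C antigen of monocytes. In the library labelled Runx3_fl it was at 159 (144 to 175) CPM in 180 cells with at least 2 Ly6c2 UMIs and at 156 (133 to 182) in 74 cells with none. The library labelled Runx3 had it at 235 (216 to 254) in 208 cells and at 243 (201 to 292) in 46 cells. Monocytes, gated by Csf1r and Ly6c2 with no C1qa, had 162 (154 to 171) in 569 cells and 210 (199 to 222) in 546 cells. Runx1 in monocytes was at 997 and 1340, Runx2 at 287 and 136, and Cbfb at 78.4 and 87.9.

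The neutrophil gate split by Csf1r into cells with and without it. Median depth was 3236.5 and 4303 UMIs in the cells without Csf1r, against 10861 and 10962 in those with it. Some shallow cells may thus have missed Csf1r. Cells with no Csf1r UMI had S100a8, a granulocyte gene, at 5888 and 60567 CPM, and their Runx3 was at 64.2 (53.0 to 77.1) and 74.0 (64.3 to 84.7). Cells with Csf1r had Runx3 at 143 (132 to 154) and 169 (160 to 178). Runx3 in the Csf3r cells without Csf1r was thus about as low as in B-lineage cells, while their Runx1 stayed at 1018 and 859. Free RNA at the estimate for the whole gate would give 16.2 and 33.5 CPM of Runx3. Between NK cells with and without Eomes, a factor of conventional NK cells, Runx3 differed little. It was at 838 and 568 in cells with Eomes and at 779 and 627 in cells without.

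The libraries were then compared class by class, as the level in the library labelled Runx3 divided by that in the one labelled Runx3_fl, in log2 and after adding 1 CPM. With 1 library in each group these values compare 2 libraries, not 2 genotypes. The median of all genes tested was 0.07 in NK cells, 0.08 in T cells, 0.23 in the B gate, 0.35 in the neutrophil gate, 0.14 in cDC and 0.26 in macrophages, and a member's ratio is best read against it.

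Runx3, the targeted gene of the study, was not lower in the macrophages of the library labelled Runx3. Its log2 ratio was 0.65 (0.50 to 0.80), from 154 to 241 CPM, and 0.38 above the median of all genes. With free RNA subtracted it was 0.42. In the same cells Runx1 had 0.80 (0.73 to 0.87), Runx2 -0.97 (-1.16 to -0.81) and Cbfb 0.08 (-0.15 to 0.32). The sign of the Cbfb value turned to -0.55 with free RNA subtracted and to -0.18 against the median gene. So 3 of the 4 members passed 1.5-fold in macrophages, where 39.2% of all genes tested did. Runx1 and Runx3 fell short of it with free RNA subtracted, at 0.41 and 0.42, and against the median gene, at 0.53 and 0.38, which left Runx2. Markers of other cells moved too. The summed level of the 7 B cell markers in this gate was 10.6 and 195 CPM, with Pax5 and Fcer2a at 0 in the library labelled Runx3_fl and above 0 in the other. That of the 7 T cell markers was 47.3 and 100.2 with none at 0. The 7 neutrophil markers summed to 62.8 and 260.3, with Retnlg and Ly6g at 0 in the library labelled Runx3_fl, and the 7 NK markers to 209.6 and 90.4. Lyz2, the gene whose promoter drives Cre, was at 3056 and 903. The part of these in the Runx values was not tested beyond the subtraction of free RNA.

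In NK cells all 4 members were lower in the library labelled Runx3. The log2 ratio was -0.50 (-0.64 to -0.36) for Runx3, -0.62 (-0.86 to -0.39) for Runx2, -0.44 (-0.74 to -0.15) for Cbfb and -0.16 (-0.24 to -0.08) for Runx1. Of these 1 of 4 passed 1.5-fold, against 32.8% of all genes tested. That call, of Runx2, was lost under 4 alternatives, at -0.42 with a gate of 1 UMI, -0.52 with a gate of 3 UMIs, -0.48 as a mean over cells and -0.55 with free RNA subtracted. The NK gate of the library labelled Runx3 had 62 cells. Markers of other classes moved in this gate too. The 7 B cell markers summed to 10.1 and 242 CPM, with Fcer2a among those at 0 in the library labelled Runx3_fl. The 7 neutrophil markers summed to 12.1 and 212, with Cxcr2 and Ly6g at 0 in both libraries, and the 7 macrophage markers to 21.7 and 98.8, with Mertk at 0 in the library labelled Runx3_fl. Their part in the NK values was not tested beyond the subtraction of free RNA. Over all 10 alternative settings, that subtraction among them, the Runx3 ratio stayed within -0.57 to -0.38. That of Runx1 ranged from -0.29 to -0.002, and in NK cells with no Eomes UMI, 138 and 21 cells, it was 0.19 (0.04 to 0.34).

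In T cells Runx2 had a log2 ratio of -2.11 (-2.22 to -2.01) and Runx1 of 0.60 (0.54 to 0.65). Runx3 at 0.03 (-0.08 to 0.13) and Cbfb at -0.11 (-0.24 to 0.02) lay within counting error of 0. Here 2 of 4 members passed 1.5-fold, and 40.7% of all genes did. Runx1 fell short of it against the median gene, at 0.52, with a gate of 1 UMI, at 0.53, as a mean over cells, at 0.54, and without the deepest cells, at 0.58, which left Runx2. In T cells with no Cd4, Cd8a or Cd8b1 UMI Runx1 was at 0.41, and in Cd8a cells at -0.14. The 7 NK markers summed to 2138 and 410 CPM in the T gate, and the part of this in the Runx values was not tested. The Runx3 value of T cells joined opposite values of its parts, 0.68 (0.45 to 0.90) in Cd8a cells and -0.78 (-1.07 to -0.51) in Cd4 cells.

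In the B gate 3 of 4 members passed 1.5-fold, among 55.4% of all genes. Runx1 was at 1.95 (1.87 to 2.03), Runx2 at -1.12 (-1.31 to -0.96), Cbfb at 0.79 (0.66 to 0.93) and Runx3 at 0.26 (0.10 to 0.42). Within the cells with Ms4a1 the values were 0.41 for Runx1, -0.03 for Runx2, 0.26 for Cbfb and 0.23 for Runx3, so none of the members passed 1.5-fold there. In the cells without Ms4a1 Cbfb was at 0.26 as well, while Runx1 was at 2.15 and Runx2 at -0.62. The cells without Ms4a1 differed in depth between the libraries, as given above. For the whole gate Cbfb fell short of 1.5-fold against the median gene, at 0.56, and with cells of more than 1 gate counted in each, at 0.58. As a mean over cells, in which deep cells do not weigh more, the Runx1 value of the whole gate was 0.97.

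In the neutrophil gate Runx2 was at -0.60 (-0.73 to -0.47), Cbfb at 0.46, Runx3 at 0.26 and Runx1 at 0.13, so that 1 of 4 passed 1.5-fold against 40.9% of all genes. Runx2 fell short of it as a mean over cells, at -0.18, without the deepest cells, at -0.48, and in cells with no Csf1r UMI, at -0.39. Runx3 passed it as a mean over cells, at 0.82, and Cbfb in cells with no Csf1r UMI, at 1.10. Against the median gene, Runx3 and Runx1 turned to -0.09 and -0.22. In cDC none of the members passed 1.5-fold, against 31.5% of all genes. Runx1 was at 0.49, Runx2 at 0.32, Runx3 at 0.28 and Cbfb at -0.06. Runx1 passed 1.5-fold as a mean over cells, at 0.60, and without the deepest cells, at 0.61, and Runx2 turned to -0.22 when cells of more than 1 gate were counted in each.

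**Figure D5:**
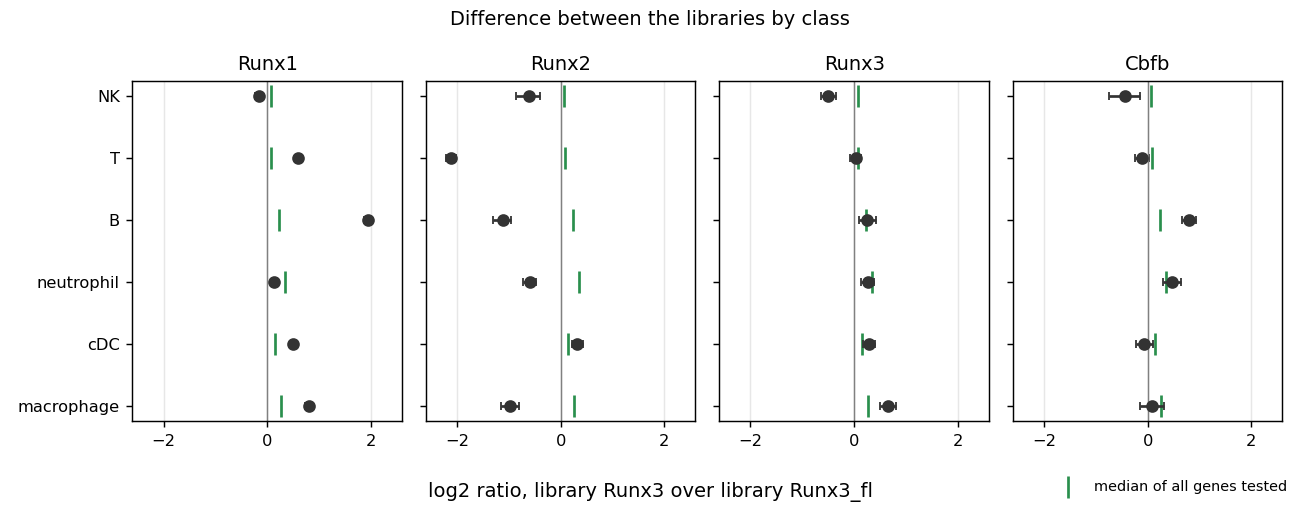
Difference between the libraries (log2, Runx3 over Runx3_fl) for each member and class, with 95% counting intervals and a green tick at the median of all genes tested. Runx2 lies left of 0 in every class but cDC and reaches -2.11 in T cells, while Runx3 lies left of 0 in NK cells and right of it in macrophages.

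Summed over all kept cells, Runx3 was at 313 and 195 CPM, and Runx2 at 575 and 122. NK cells were 4.88% and 0.759% of the kept cells and T cells 22.4% and 3.34%. Within the gates as a whole Runx3 was lower in NK cells of the library labelled Runx3 and in no other class, and 51.8% and 55.1% of the kept cells were in no gate. The part of the cell make-up in the level of all cells was not tested.

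The lists of cofactors and known targets are given by how many genes were 1.5-fold or more higher or lower in the library labelled Runx3. The shares to read these counts against are those of all genes in the same gate, given above, and a list near that share is no result about the list. RUNX proteins act with corepressors of the TLE and ETO families and with histone acetyltransferases. Of the 10 such cofactor genes, 5 were 1.5-fold or more higher in the T cells of the library labelled Runx3 and none lower, with a list median of 0.58 against 0.08 for all genes. Tle4 had 205 and 398 CPM there, and Tle3 had 55.7 and 94.6. In macrophages 5 were higher and none lower, with a median of 0.53 against 0.26, among them Tle4 at 133 and 257 and Hipk2, a kinase that acts on Runx1 complexes, at 43.9 and 86.1. The counts were 6 higher and none lower in the B gate with a median of 0.65 against 0.23, 7 and none in the neutrophil gate with 0.60 against 0.35, and 3 and none in cDC with 0.29 against 0.14. In NK cells 1 was higher and 2 lower, with a median of -0.01 against 0.07. The higher one, Tle1, had 12 and 3 UMIs and a log2 ratio of 0.64 (-1.60 to 2.75). Cbfa2t3, an ETO family corepressor, had 146 and 71.1 CPM. In every gate but that of neutrophils the share called was not far from that of all genes.

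Of the 10 partner and antagonist factors, 9 had enough UMIs for a ratio in macrophages and cDC, 8 in NK cells and 10 in the other gates. In macrophages 6 were higher and 2 lower, with 6 and 2 in the B gate and 4 and 2 in T cells. The counts were 3 and 2 in the neutrophil gate, 3 and 2 in cDC, and 3 and none in NK cells. The shares of all genes called were 39.2%, 55.4%, 40.7%, 40.9%, 31.5% and 32.8% in the same order. The list medians were 0.79, 1.16, 0.37, 0.45, 0.48 and 0.31 in the same order, against 0.26, 0.23, 0.08, 0.35, 0.14 and 0.07 for all genes. In macrophages Spi1, which encodes PU.1 and is a Runx1 target, had 221 and 309 CPM, short of 1.5-fold, and Zbtb7b had 13.3 and 21.6. Calls near the floor included Gata3, at 2.93 and 10.9 in macrophages, and Cebpa, at 0.294 and 5.89 in the B gate. The part of free RNA in these counts was not tested.

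The 9 genes known as activated by Runx factors in lymphocytes were mostly lower in the T cells of the library labelled Runx3, 7 lower and 1 higher, with a list median of -1.53 against 0.08 for all genes, of which 40.7% were called. Gzmb, the cytotoxic protease granzyme B, had 1843 and 256 CPM, Ccl5, a chemokine of effector T cells, 2801 and 588, and Prf1, which encodes perforin, 53.7 and 6.30. Itgae, which encodes the integrin CD103, went the other way at 3.95 and 35.5. The make-up of the T gate differed as well. Cells of the Cd8a gate were 898 of 2668 T cells and 36 of 273. T cells with no Cd4, Cd8a or Cd8b1 UMI were 223 and 101. Cd8a and Cd8b1 are themselves on this list, and the part of the make-up in these counts was not tested. In NK cells 4 of the 9 were lower and none higher. These were Ccl5, at 7310 and 3359, and Cd8a, Cd8b1 and Itgae, which had no UMI in the 62 NK cells of the library labelled Runx3 and at most 2.72 CPM in the other, while Prf1 had 586 and 499. In the other gates 6 were lower in B, 7 in the neutrophil gate, 4 in cDC and 3 in macrophages, with Itgae higher in macrophages. The shares of all genes called there were 55.4%, 40.9%, 31.5% and 39.2%. Some of these levels lay near the floor. In the neutrophil gate Cd8a had 1.79 and 0.740, Cd8b1 1.62 and 0.555 and Prf1 9.58 and 1.29, while Ccl5 had 920 and 424. T and NK cells were a smaller part of the library labelled Runx3. The part of their free RNA in these counts was not tested. The list medians were -0.23 in NK cells, -0.93 in B, -1.12 in the neutrophil gate, -0.42 in cDC and -0.56 in macrophages, each below the median of all genes. In macrophages 8 of the 9 genes had enough UMIs for a ratio. The share called in NK cells, B, cDC and macrophages was not far from that of all genes.

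Of the 4 genes known as repressed by Runx factors, Ccr7 and Il4 were higher in T cells and none was lower. Ccr7, a homing receptor of naive T cells, had 34.4 and 200.7 CPM. Cd4 and Zbtb7b were higher in cDC with none lower, and in macrophages the same 2 were higher and Ccr7 lower, with Cd4 at 2.70 and 23.6. In the B gate 2 were higher and 1 lower, in the neutrophil gate 2 were higher and none lower, and in NK cells 1 was lower, Cd4, with no UMI in the library labelled Runx3. With 4 genes at most, nothing is read from these counts against the share of all genes called. The list medians were 1.502 in T cells, 0.88 in cDC, 0.66 in macrophages, 0.74 in B, 0.44 in the neutrophil gate and 0.43 in NK cells.

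Of the 6 genes known as activated by Runx1 in myeloid cells, 3 or 4 had enough UMIs for a ratio in each gate. In macrophages 1 of 3 was higher, Mpo, at 0.9005 and 3.17 CPM, while Csf1r, the receptor of a macrophage growth factor and part of the gate itself, had 358 and 490.1. In the neutrophil gate Mpo had 0.649 and 175 and Elane 0.162 and 228, both granule genes of neutrophil precursors. The other gates had 3 higher in NK cells, 4 in T cells, 4 in the B gate and 2 in cDC, and none of these genes was lower in any gate. Some levels lay near the floor, such as Mpo at 0.795 and 2.65 in T cells and Elane at 0 and 1.47 in the B gate. S100a8 was higher too, at 2.17 and 92.2 in NK cells and 7.08 and 85.9 in T cells. It had 1.76 and 99.0 in the B gate and 2.19 and 128.8 in cDC. The part of free RNA was not tested, and with 3 or 4 genes nothing is read against the share of all genes called. The medians were 0.48 in macrophages, 3.65 in the neutrophil gate, 0.95 in NK cells, 2.13 in T cells, 1.86 in the B gate and 1.57 in cDC, each over 3 or 4 genes.

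The genes whose pattern over the 12 class and library values was most like that of Runx3, Runx1 or Cbfb were listed as a description, over 5602 genes. For Runx3 they were Peak1, with a Pearson r of 0.97, Dync1li1, Padi2, Myo16 and Stat3, with 0.92 to 0.94. For Runx1 they were Neurl3, with 0.94, Cbl, Prkx, Parp8 and Aim2, with 0.90 to 0.93. For Cbfb they were Usp7, with 0.98, Nup153, Rprd1b, Kat6a and Uggt1, all at 0.97. Peak1 was at 819 and 751 CPM in NK cells and at 65.8 and 168 in B-lineage cells. Among the members, Runx3 was most like Runx1, with 0.73, then Runx2, with 0.56, and Cbfb, with 0.54. Runx1 and Runx2 had 0.13. The 12 values come from 2 libraries, so values of 1 library share its depth and handling.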

How the data were processed

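The 4 members and all gene lists were chosen with earlier results of these data known, and the rule for named genes was the members, the listed pathway and marker genes, and the 5 genes most like Runx1, Runx3 and Cbfb. The deposited matrices hold UMI counts per gene and cell, made by the authors with Cell Ranger 7.1.0 per the file headers from 10x Genomics 3′ libraries (version 3 chemistry). The submitters' processing notes name mm10 and Seurat 4. Intron counting was not given in the sources used here. Coordinates are of GENCODE M21 on GRCm38, which held 32235 of the 32285 gene IDs.

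Cells were kept at 200 to 6000 genes and at most 15% mitochondrial UMIs. The upper gene limit and the removal of cells in more than 1 gate were the treatment of doublets. Counts were summed by gate and library and scaled to the total (CPM), and a gate needed 20 cells. Levels carry exact Poisson and shares exact binomial 95% intervals, for counting error only. Ratios were taken for genes with at least 10 UMIs in both libraries together, adding 1 CPM, and called at 1.5-fold. Likeness used 10 added and genes at 50 or more in at least 1 value. Free RNA was the median ratio, over markers of other lineages at 10 or more CPM, of a class to its library. The ratio step was checked on simulated data. The scripts ran on Python 3.11.15 with scipy 1.17.1 for the intervals and numpy 2.4.6.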

Additional observations from a re-analysis of the deposited data

Results flagged for a closer look

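For each member the difference between the libraries went in opposite directions in 2 classes by more than counting error. With 1 library in each group these differences were not tested, and no cause is given. Runx1 had a log2 ratio (library labelled Runx3 over Runx3_fl) of 1.95 in the B gate and -0.16 in NK cells. The NK value reached -0.002 among the 10 alternative settings and was 0.19 in NK cells with no Eomes UMI. Runx2 had 0.32 in cDC, which turned negative under 2 other definitions of the gates, and -2.11 in T cells. Runx3 had 0.65 in macrophages and -0.50 in NK cells. Cbfb had 0.79 in the B gate and -0.44 in NK cells. The B gate values fall to 0.41 for Runx1 and 0.26 for Cbfb in the cells with Ms4a1.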

How the results depend on the processing

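The 10 alternatives were another gate of 1 or 3 UMIs, cells of more than 1 gate counted in each, a mean over cells, a mitochondrial limit of 10%, the deepest 5% of cells left out, free RNA subtracted, the median gene set to 0, a total without immunoglobulin, haemoglobin, mitochondrial and ribosomal genes, and shared barcodes left out. No replicate was left out and no leave-one-out value exists, since each group had 1 library. No paired analysis was possible because each group had 1 library. Splits of the neutrophil, B and T gates were added after the data were seen. No ratio of 1.5-fold or more changed sign under the 10 alternatives, but that of Runx1 in T cells was -0.14 in the Cd8a cells of the gate. Smaller ratios changed sign under at least 1 alternative for Runx3 in T cells, the B gate and the neutrophil gate, Runx1 in the neutrophil gate, Runx2 in cDC, and Cbfb in T cells, cDC and macrophages. Runx1 and Runx3 stayed highest in NK cells in both libraries under all 9 alternatives that alter levels, and Runx2 in the library labelled Runx3 was highest in T cells in 6 of them.

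In macrophages the log2 ratio of Runx3 moved from 0.65 to 0.39 with cells of several gates counted, 0.42 with free RNA subtracted and 0.38 with the median gene set to 0, so under each of these it fell short of 1.5-fold. That of Runx1 moved from 0.80 to 0.72 at a gate of 3 UMIs, and to 0.68, 0.41 and 0.53 under the same 3 settings, the last 2 of them short of 1.5-fold. That of Cbfb moved from 0.08 to -0.55 with free RNA subtracted and -0.18 with the median gene set to 0. The Runx3 share of Runx UMIs in macrophages moved to 13.5% at a gate of 3 UMIs in the library labelled Runx3_fl and to 16.8% with free RNA subtracted in the library labelled Runx3. In NK cells of the library labelled Runx3_fl it moved to 25.05% as a mean over cells and 25.8% without the deepest cells. The NK ratio of Runx3 stayed between -0.57 and -0.38. The cause of these moves was not tested. Depth limits the pairing of members in single cells, since a thinned NK cell held on average 0.414 and 0.210 Cbfb UMIs.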
